A study of Mus musculus with 2 samples.

Results

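A splice junction is a pair of genome positions joined in a read because the intron between them was removed. In RNA of mouse subcutaneous fat, 235 junctions had at least 100 reads in all and 0 reads from 1 of the 2 libraries. They were chosen from a deposited table of 480876 junctions on genome build mm9, of which 58999 had 100 reads or more, so 0.398% of the well-read junctions were one-sided. Each junction name carries a pair of read numbers, called R1 and R2, that add up to its reads. No label ties R1 or R2 to replicate 1 or replicate 2, and they are kept as R1 and R2 here. The numbers chose the junctions, so reads, sides and folds below describe the members and are not tested.

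The 2 libraries are biological replicates 1 and 2 of a single group. Per the labels, both hold polyA RNA of over 200 nt, depleted of ribosomal RNA, from the subcutaneous fat pad of C57BL/6J littermates at 8 weeks, males and females pooled. Stranded paired reads of 76 nt were sequenced, and no treatment or altered allele is named. The labels give each library its own biosample and both the same donor record, and nothing in the labels says how many animals each pool held. The R1 numbers summed to 20608101 junction reads and the R2 numbers to 21401551, a ratio of 1.04, so reads are compared without scaling. A count of 0 allows up to 3 reads, counting error only.

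White fat cells store triglyceride and release fatty acids and hormones, and the depot also holds vessels, fibroblasts and immune cells. In female mice the mammary ducts, which are lined by epithelium, run through subcutaneous fat. Adipocyte markers were read well under both numbers: junctions of the adiponectin gene Adipoq summed to 13045 R1 and 58718 R2 reads, and those of the lipid droplet gene Plin1 to 15666 and 38736. In the gene table the TPM of Adipoq was 997 in replicate 1 and 3591 in replicate 2. None of the 10 genes of the white adipocyte list held a one-sided junction. They had 61 junctions of 100 reads or more, and at the 0.398% of all well-read junctions a number that small would mostly hold none; their junctions summed to 520410 R1 and 1230617 R2 reads. In bulk tissue, fewer cells of a type and less RNA per cell cannot be told apart.

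The reference annotation is on another build, so a junction took a gene's name where at least 3 introns agreed in length and in the exon lengths between them. By this match 214 of the 235 one-sided junctions were named, and they lay in 61 genes. Matching against the genes of another chromosome named 0 of them. In the annotation 8310 genes had a named junction of 100 reads or more, and the 61 are 0.734% of these. Gene positions and sequences below are on GRCm38, from GENCODE release M21, and junction positions are on mm9.

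The sequences below show what a read across a junction spells, with the last 30 bases of the exon before it in lower case and the first 30 of the exon after it in capitals. All flanks are coding. The first 8 are the best-read one-sided junctions of 8 genes that had 0 reads under R2 there.
A2m: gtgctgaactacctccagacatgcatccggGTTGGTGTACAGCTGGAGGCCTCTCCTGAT
Col6a4: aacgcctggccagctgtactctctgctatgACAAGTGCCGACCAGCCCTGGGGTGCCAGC
Scube1: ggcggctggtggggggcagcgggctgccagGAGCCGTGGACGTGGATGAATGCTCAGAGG
Stra6: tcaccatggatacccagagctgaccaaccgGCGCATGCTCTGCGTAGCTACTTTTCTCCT
Wfdc2: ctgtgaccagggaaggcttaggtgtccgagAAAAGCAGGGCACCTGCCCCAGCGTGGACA
Cdh1: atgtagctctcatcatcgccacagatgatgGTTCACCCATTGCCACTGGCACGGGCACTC
Slc26a7: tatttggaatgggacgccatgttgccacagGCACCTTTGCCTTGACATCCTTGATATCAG
Slc39a4: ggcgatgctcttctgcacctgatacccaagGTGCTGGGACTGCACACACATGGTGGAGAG

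These joins are intron 19 of the 35 introns of A2m (chr6:121660149-121660842, plus strand), intron 34 of 37 in Col6a4 (chr9:106000896-106003178, minus strand) and intron 1 of 22 in Scube1 (chr15:83721982-83724818, minus strand). The Stra6 join is intron 16 of 18 (chr9:58151465-58151878, plus strand) and that of Wfdc2 is intron 3 of 4 (chr2:164564213-164565791, plus strand). In Cdh1 it is intron 11 of 15 (chr8:106662031-106663746, plus strand), in Slc26a7 intron 3 of 18 (chr4:14590486-14593809, minus strand) and in Slc39a4 intron 6 of 11 (chr15:76613946-76614056, minus strand). Reads across them under R1 were 706 for A2m, 1561 for Col6a4, 967 for Scube1 and 581 for Stra6. Wfdc2 had 880, Cdh1 526, Slc26a7 330 and Slc39a4 456. Under R2 all 8 had 0.

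The sides were very unequal. Of the 58999 well-read junctions, 221 (0.375%) had 0 under R2 and 14 (0.0237%) had 0 under R1. The first kind was thus 94.0% of the members, which share genes and clusters and are not independent. Junctions with 0 under R2 had from 100 to 1561 reads, with a median of 176. Those with 0 under R1 had from 108 to 1026, with a median of 278.

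Members lay in clusters. Joined where neighbours on a strand were at most 100 kb apart, they formed 70 clusters, of which 37 held 1 junction, and the 8 largest held 112 members (47.7%). Chromosome 9 held 70 members, 29.8% of them, against 6.0% of the well-read junctions, and all 70 had 0 under R2. Of these, 48 were named as Col6a4, Stra6 and Col7a1, and without those 48 the chromosome's share was 11.8% (22 of 187). The 22 still include an unnamed junction inside the span of Col6a4. Chromosome 6 followed with 31 members, 25 of them in A2m, and chromosome 15 with 19. Chromosome 12 differed in side, with 11 members at 0 under R1 and 2 at 0 under R2. On the mitochondrial genome 4 junctions had 100 reads or more, and none was one-sided.

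Several genes of secreted and matrix proteins held members. A2m, which encodes the protease inhibitor alpha-2-macroglobulin (ENSMUSG00000030111.9, chr6:121635376-121679227), had 35 matched junctions with 6611 R1 reads and 0 R2 reads. All 25 of its junctions with 100 reads or more were one-sided, with 101 to 706 reads and a median of 212. By the floor of 3 reads its sum was at least 2204-fold higher under R1. Col6a4, a collagen VI chain gene (chr9:105989454-106096783), had the deepest signal, 18506 R1 reads against 19 R2 reads over 36 junctions. There 22 of 34 well-read junctions were one-sided and the other 12 had 1 to 3 R2 reads, so members and non-members of this gene differ by a few reads.

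Col7a1, whose product anchors epithelium to the matrix beneath it, had 5649 R1 and 59 R2 reads over 107 junctions. Its 12 members, of 18 well-read junctions, had 100 to 195 reads, and its other 6 had 1 to 14 R2 reads. Scube1, a secreted and cell-surface EGF-domain protein gene, had 7129 and 22 reads and 11 members of 20. Wfdc2, a secreted whey acidic protein family member of epithelia, had 4103 reads against 1. Its 3 members had 842, 876 and 880 reads, and its other well-read junction had 1487 R1 reads and 1 R2 read. Ltf, the iron-binding milk protein lactoferrin, had 2261 and 7 reads with 7 members. Chrdl2, a gene for a BMP-binding protein, had 5, Vwa2 had 4, and Pigr, the receptor that carries IgA across epithelia, had 1 of 226 reads.

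**Figure D1:**
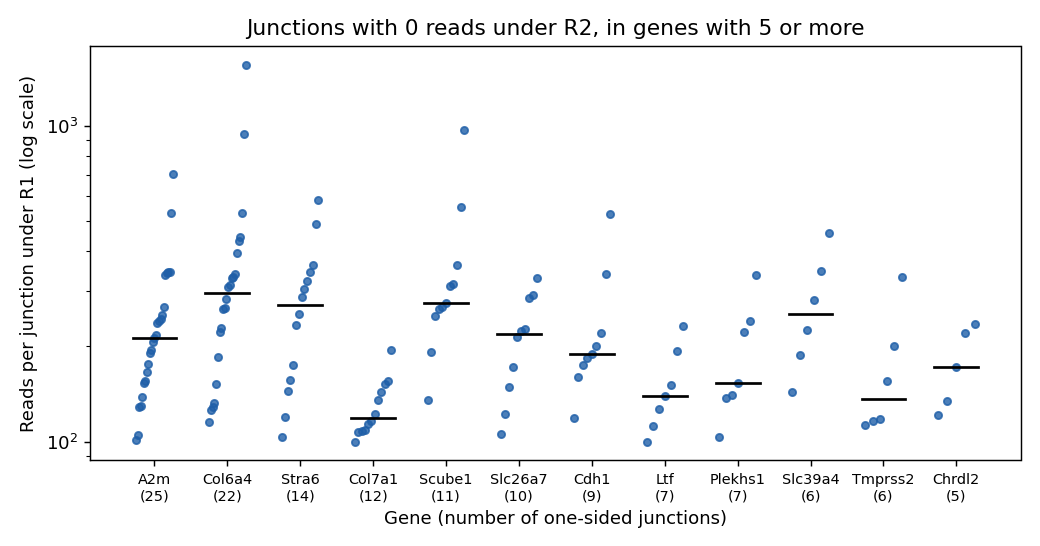
Reads under R1 (log axis) of each junction with 0 under R2, as points, in the 12 genes with 5 or more such junctions; the horizontal line is the gene's median. A2m has 25 junctions between 101 and 706 reads, and the highest point is the Col6a4 junction of 1561 reads.

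Adhesion and keratin genes of epithelial cells formed a second group. Cdh1, which encodes E-cadherin, the adhesion protein of epithelial cells, had 3482 R1 and 10 R2 reads and 9 members of 13 well-read junctions, with 119 to 526 reads. Epcam, an epithelial surface protein gene, had 1235 and 2 reads and 2 members, and the tight junction gene Cldn7 had 474 and 1 with 2 members. In Krt18, a keratin gene of simple epithelia, 1 of 6 well-read junctions was one-sided, with 119 reads, and the gene summed to 1536 and 20. Transcription and splicing factors of epithelia were also here, Elf3 (3 members, 770 and 1 reads), Ehf (1 member, 380 and 1) and Esrp1, an epithelial splicing regulator (1 member, 472 and 0).

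Of the 16 genes in the glandular epithelium list, 14 had a well-read junction and 8 held a member: Krt18, Epcam, Cdh1, Cldn7, Esrp1, Elf3, Ehf and Wfdc2, with 22 members among 64 well-read junctions. Over all well-read junctions the one-sided share was 0.398%. The list's junction reads summed to 24022 under R1 and 564 under R2. Each of the 8 genes had 20 R2 reads or fewer, so most of the 564 lay in genes of the list without a member. The list's genes without a member were Krt8, Krt19, Cldn3, Cldn4, Spint1, Prom1, Lcn2 and Muc1. Not all of these could add reads, since only 14 of the 16 genes had a matched junction. The part of epithelial cell content in the one-sided junctions was not tested. In the reproductive tract list 3 genes of 24 held 20 members, among 38 well-read junctions in 7 genes: Stra6 with 14, Pgr with 4 and Pax8 with 2. The list's junction reads summed to 12650 under R1 and 461 under R2. Of those R2 reads Stra6 had 5, Pgr 7 and Pax8 3, so nearly all lay in genes of the list without a member. Both lists were chosen with results of these libraries known. The smooth muscle list, with 247327 R1 and 31225 R2 reads over its junctions, had 95 well-read junctions and no member. The lists of mesothelium (36), cell division (5), B and plasma cells (7), T cells (6), neutrophils and mast cells (12), skeletal muscle (6) and nerve (2) held no member, nor did those of brown fat (8) and liver-secreted proteins (6). No gene of the epidermis list had a well-read junction. At the 0.398% of all well-read junctions, each of these lists without a member would mostly hold none.

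Hormone and vitamin genes were another group. Pgr, the progesterone receptor gene, had 2026 R1 and 7 R2 reads over 7 junctions, of which 4 were one-sided with 107 to 204 reads. Rxfp1, which encodes the receptor of the hormone relaxin, had 4015 and 42 with 2 members of 14 well-read junctions. Ramp3, a partner protein of calcitonin-family receptors, had 4565 and 6 with 2 members of 147 and 168 reads. The Ramp3 members lead into and out of an exon that a longer junction skips, and that junction had 1813 R1 reads and 1 R2 read. Stra6, the receptor that takes up retinol, had 5335 and 5 reads, with 14 members of 18 well-read junctions (103 to 581 reads). Crabp1, a retinoic acid binding protein gene, had 237 and 0. Of vitamin C genes, the transporter gene Slc23a1 had 954 and 0 with 3 members, and Gulo, the last enzyme of its synthesis, had 402 and 1 with 1 member.

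Genes of transporters, channels and surface proteases also held members. Slc26a7, an anion exchanger gene (chr4:14502430-14621805), had 2479 R1 reads and 0 R2 reads over 17 junctions, at least 826-fold higher by the floor, and all 10 of its well-read junctions were one-sided. Slc39a4, an intestinal type zinc importer gene, had 3374 and 11 with 6 members of 11. Fxyd4, a sodium pump regulator gene, had 1175 and 0 with 4 members, the GABA receptor subunit gene Gabrp 675 and 0 with 1, and the noradrenaline transporter gene Slc6a2 2035 and 30 with 1. Membrane serine protease genes were Tmprss2 (1434 and 0, 6 members), Prss8 (890 and 4, 2 members), St14 (2669 and 46, 1 member) and Tmprss4 (411 and 1, 1 member). These groups by role were made after the members were known.

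Whole loci, rather than single introns, were quiet in most of these genes. Of the 59 named genes with a junction at 0 under R2, 58 are annotated as protein coding, and the other, Foxl2os, as a processed transcript. In 11 genes no matched junction had an R2 read, and these held 60 members. A further 46 genes had 1 to 67 R2 reads over all their matched junctions and held 150 members. The 2 remaining genes, Stk11 and Tspyl2, had 100 R2 reads or more and held 1 member each. In 22 of the 59 genes every well-read junction was one-sided. Many of these, such as Esrp1 and Gabrp, had only 1 well-read junction. For such genes this follows from the choice of genes and says nothing of the locus. Members were concentrated: 12 genes with 5 or more held 134 of the 235 (57.0%), and 30 of the 61 genes held 1.

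**Figure D2:**
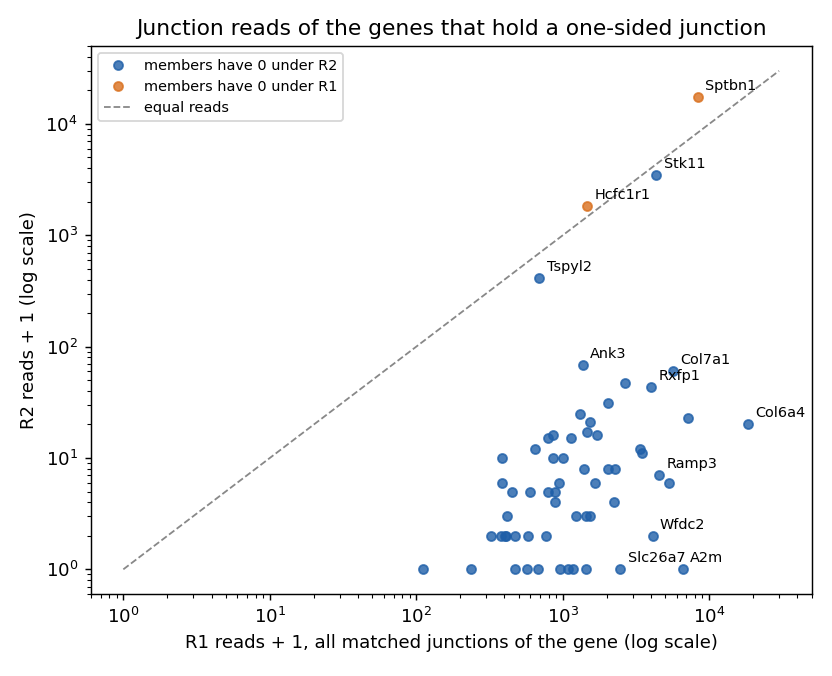
Reads of all matched junctions of each of the 61 genes with a one-sided junction, R1 across and R2 up, each plus 1 and on log axes, coloured by the silent side; the dashed line marks equal reads. Stk11, Tspyl2, Hcfc1r1 and Sptbn1 lie near the line, while the other 57 genes lie far below it, A2m and Slc26a7 at 0 R2 reads.

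The gene tables, made separately on mm10, gave estimated counts per replicate for 58 of those 59 genes. Igsf5 was not matched there by identifier. In all 58 the count was higher in replicate 1, where it ranged from 175 to 53535 with a median of 2464. In replicate 2 it ranged from 0 to 6132 with a median of 11.5, and 14 genes had a count of 3 or fewer. These tables come from the libraries that gave the junctions, so this describes the same reads a second way, and it does not label R1. A2m had 12347 counts in replicate 1 and 1 in replicate 2, Col6a4 53535 and 57, Slc26a7 3766 and 0, Pgr 12685 and 36, and Cdh1 8455 and 19. Stk11, with 7163 and 6132, and Tspyl2, with 3096 and 1881, were unlike them. Fxyd4 had fewer gene counts (175 and 0) than junction reads (1175 and 0). Other genes with members also had fewer in total, such as BC048679 (1122 and 6 against 1655 and 5) and Oit1 (251 and 3 against 414 and 2).

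Many of the 14 junctions with 0 under R1 were long. Their introns ran from 280 to 183226 bases with a median of 35894, and 8 of the 14 were over 30 kb. All 8 lay in 1 span of chromosome 12, described below, so the length belongs to that locus. The junctions outside that span had 280 bases (Sptbn1), 478 (Hcfc1r1) and 2894 (chromosome 1). Junctions with 0 under R2 ran from 69 bases, in Slc39a4, to 41811 bases, in Tmem132c. Their median was 997 bases, and 2 of the 221 were over 30 kb. The 58764 well-read junctions with reads under both numbers had a median of 964 bases, and 2.2% of them were over 30 kb. Length was not used by the rule, but the 14 share few loci, so no test was made.

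**Figure D3:**
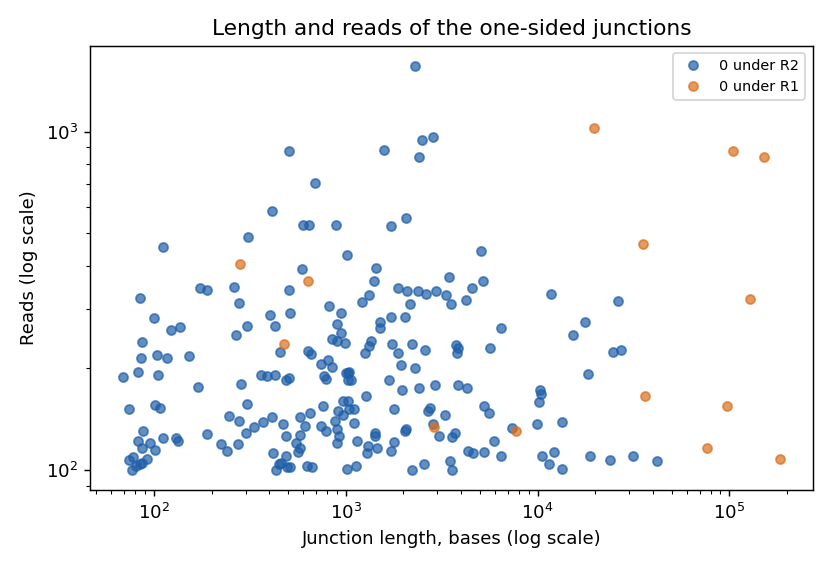
Length in bases (across) and reads (up) of each one-sided junction, both on log axes, with 0 under R2 in blue and 0 under R1 in orange. The blue points centre on a median of 997 bases, and 8 of the 14 orange points lie beyond 30 kb, all from 1 span of chromosome 12.

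Of those 14 junctions, 11 lay on chromosome 12 within the mm9 span of junctions matched to Serpina1 and Serpina3 genes (chr12:104966644-105651621, 685 kb). The Serpina1 genes encode alpha-1-antitrypsin, an inhibitor of neutrophil elastase, and the Serpina3 genes encode relatives of antichymotrypsin. Mice carry several near-identical copies of each, so a read can match more than 1 copy and the placing of its ends is uncertain. On the plus strand, chr12:105478608-105583442 had 0 and 874 reads under R1 and R2. Its start was also used by a named Serpina3g junction (20 and 292 reads) and its end by a named Serpina3k junction (21 and 14), so it joined positions of 2 genes 104835 bases apart. The other plus-strand members were chr12:105629881-105649551, with 1026 R2 reads, and chr12:105477392-105629812, with 841. On the minus strand, chr12:104966644-105002877 had 166 R2 reads and joined a site used by a named Serpina1b junction (4 and 24 reads) to one used by a named Serpina1d junction.

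A set of 3 more members started at the same position, chr12:105068195, and ended at 105103748 (466 reads), 105145088 (116) and 105196986 (321). The span held 100 junctions of 10 reads or more, with 2968 R1 and 26489 R2 reads in all. Those not named and over 7 kb long, a limit set after the lengths were seen, numbered 60, with 666 R1 and 10629 R2 reads. Of them 35 had 0 under R1 and 5 had 0 under R2. The 35 include 10 members, which the rule chose for their 0. A 0 here can rest on as few as 10 reads, and the share among all junctions of 10 reads or more is not given. These counts therefore do not show whether such junctions are unusual. Serpina3n summed to 848 R1 and 11269 R2 reads over its 4 named junctions, and Serpina3c to 601 and 2716. In the gene tables Serpina3n had 6524 and 76168 counts in replicates 1 and 2, Serpina1b 117 and 4095, and Serpina1a 77.4 and 1547. Other genes of these families had the higher count in replicate 1. Serpina3g had 508 and 189, against 97 R1 and 325 R2 reads over its 3 named junctions, Serpina1f had 65 and 11, and Serpina3f 56 and 19. Serpina1e had 451 R1 and 4 R2 reads, 1 member of 133 reads at 0 under R2, and 1853 and 29.7 counts.

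In Stk11, Sptbn1, Hcfc1r1, Tspyl2 and Ivd the one-sided junction lay among other well-read junctions that each had at least 50 reads under either number. These genes were picked out after their values were seen. Stk11, the tumour suppressor kinase LKB1 (chr10:80115803-80130682), had 392 R1 and 0 R2 reads at chr10:79587631-79588223. Its 8 other well-read junctions had 162 to 974 R1 and 147 to 718 R2 reads, from 45.8% to 57.6% of them under R1. The junction before the silent one had 162 and 147 reads and the one after it 484 and 477. The silent intron, intron 2 of 9, is 593 bases long, and human STK11 is known to hold an intron of the rare AT-AC class. The letters of the intron were not analysed here.

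Sptbn1, which encodes a beta-spectrin of the membrane skeleton, showed the opposite side. Its intron 25 of 35 (mm9 chr11:30018011-30018290, 280 bases) had 0 R1 and 405 R2 reads. The other 34 well-read junctions had 50 to 842 R1 and 88 to 1643 R2 reads, with 23.9% to 43.5% under R1. A further junction of the gene, below the threshold, had 21 and 0. The junctions next to intron 25 had 842 and 1643 reads and 285 and 494. The bases joined across these introns were as follows, with the exon after the join in capitals.
Stk11: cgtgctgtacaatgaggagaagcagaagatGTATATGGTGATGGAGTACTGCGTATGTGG
Sptbn1: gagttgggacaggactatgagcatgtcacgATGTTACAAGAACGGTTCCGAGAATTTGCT

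Both carry the marks A=1 and C=0 in their names, which are not defined in the sources used here. Of junctions of 10 reads or more, 96.6% with A=1 and 19.9% with A=0 matched an annotated gene by structure. Of 139 well-read junctions with A=1 and C=0, these 2 were one-sided. In the other 137 the smaller number was at least 8, and from 15.6% to 96.7% of their reads were under R1, with a median of 51.6%.

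**Figure D4:**
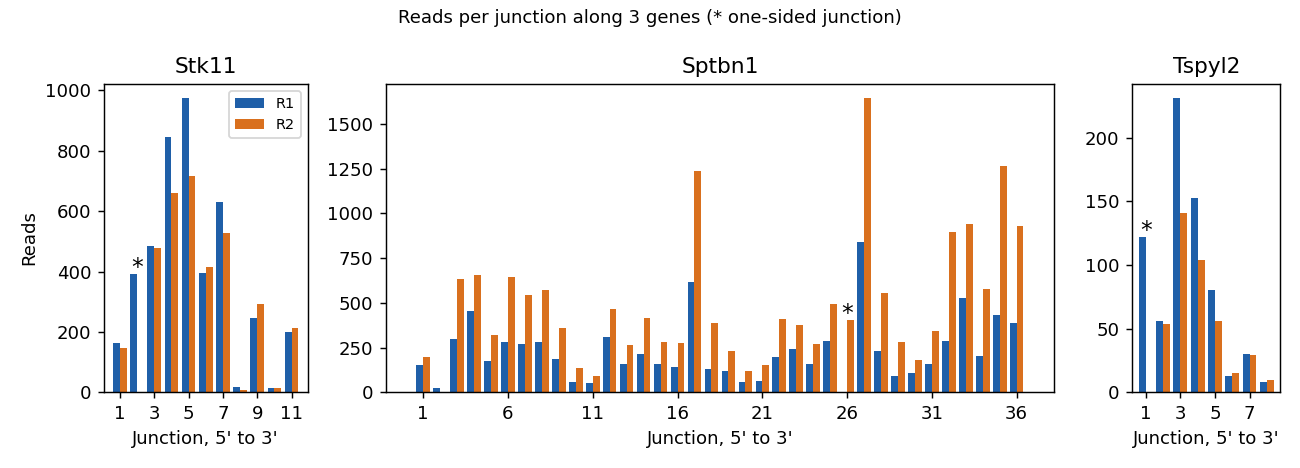
Reads of each named junction under R1 (blue) and R2 (orange), in order from 5′ to 3′, in Stk11, Sptbn1 and Tspyl2, with a star over the one-sided junction. The starred Stk11 junction has 392 R1 and 0 R2 reads and the starred Sptbn1 junction 0 and 405, between neighbours read under both numbers.

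In Hcfc1r1 and Tspyl2 the one-sided junction shared 1 end with a junction read under both numbers. Hcfc1r1, whose product binds the cell cycle regulator HCF-1, had 0 R1 and 235 R2 reads at chr17:23811036-23811513. The junction from the same start that ends 12 bases earlier had 321 and 219. The longer exon holds 12 bases that the other lacks, a multiple of the codon length. Tspyl2, a nucleosome assembly protein family member on chromosome X, had 122 and 0 reads at chrX:148774937-148776082. The junction from the same end that starts 13 bases away had 56 and 54. Its one-sided form keeps 13 more bases of the second exon, and carries the marks A=0 and C=0. The joins of both pairs are shown so that the extra bases can be seen at the start of the capitals.
Hcfc1r1, 0 and 235 reads: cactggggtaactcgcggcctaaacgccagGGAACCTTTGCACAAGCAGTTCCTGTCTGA
Hcfc1r1, 321 and 219 reads: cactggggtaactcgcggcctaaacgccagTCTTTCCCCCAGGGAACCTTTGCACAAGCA
Tspyl2, 122 and 0 reads: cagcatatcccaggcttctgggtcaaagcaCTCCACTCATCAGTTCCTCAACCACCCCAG
Tspyl2, 56 and 54 reads: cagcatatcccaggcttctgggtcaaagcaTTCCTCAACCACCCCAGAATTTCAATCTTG

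The bases held by the longer forms alone are TCTTTCCCCCAG in Hcfc1r1 and CTCCACTCATCAG in Tspyl2. The other 2 junctions of Hcfc1r1 had 45.3% and 59.4% of their reads under R1. The 4 other well-read junctions of Tspyl2 had 50.9% to 62.1%.

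In all, 13 one-sided junctions shared a splice site with another junction of 10 reads or more that was read under both numbers. Ramp3, Rxfp1, Hcfc1r1, Tspyl2, Plekhs1 and Ivd held 7 of them and the chromosome 12 span held 6. In Ivd, which encodes a leucine breakdown enzyme, a junction of 132 R1 and 0 R2 reads (chr2:118702706-118703610) skipped an exon. The junctions into and out of that exon had 549 and 1478 reads, and 480 and 1450. In Plekhs1, a junction of 185 and 0 reads shared its end with one of 217 and 1, the 2 starts being 42 bases apart, so there both forms were near silent under R2. For Rxfp1, a member of 317 and 0 reads shared its end with a junction of 235 and 7.

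The deposited score in column 8 has no stated definition. It was above 0 for all 235 one-sided junctions, from 0.001 to 0.2 with a median of 0.006. The score of junctions read under both numbers was lower where reads were more numerous, with a median of 0.004 at 100 to 149 reads and 0 at 300 to 499. Among members the order was the other way: the median was 0.006 at 100 to 149 reads (95 junctions), 0.009 at 300 to 499 (34) and 0.0215 at 500 to 999 (14). In that last class 96.9% of the 8458 junctions read under both had a score of 0. The highest member score, 0.2, was that of the best-read one-sided junction, Col6a4 with 1561 reads. The junction of 1026 reads on chromosome 12 had a score of 0.008. Whether the score uses R1 and R2 was not tested.

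**Figure D5:**
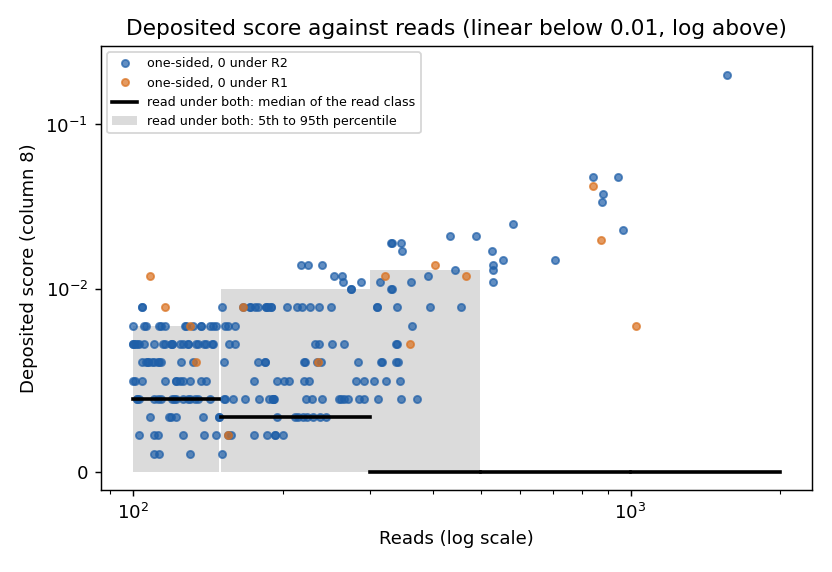
Deposited score (up, linear below 0.01 and log above) against reads (across, log axis) of each one-sided junction, with the median (black) and 5th to 95th percentile (grey) of junctions read under both numbers in the same classes of reads. Members of 500 to 999 reads have a median of 0.0215, where the black line is at 0.

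Names were also unevenly marked. Of 57436 well-read junctions with A=1 and C=1, 214 (0.373%) were one-sided, 212 of them with 0 under R2. Of 1003 with A=0 and C=1, 15 (1.5%) were one-sided, 6 with 0 under R2 and 9 with 0 under R1. With A=0 and C=0 it was 4 of 421 (0.95%), 2 on each side. With A=1 and C=0 it was 2 of 139 (1.44%), 1 on each side. Of the A=0 members with 0 under R1, all but the Hcfc1r1 junction lay in the serpin span of chromosome 12. The shares for A=0 thus rest largely on that locus.

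Promoters in the RefSeq table of build GRCm38.p6 were found for 40 of the 59 genes with a junction at 0 under R2. The 250 bases before each start were searched on both strands for 4 words. CAGGTG, a word bound by repressors of epithelial genes such as ZEB1 and SNAI1, was present in 18 of the 40 genes (45.0%) and in 19.4% of 27025 genes. GGGCGG, the core of the GC box, was in 22 of 40 (55.0%) and in 35.4% of all. The TATA box word TATAAA was in 2 of 40 (5.0%), Bcat1 and Pgr, and in 14.3% of all. AACCGGTT, the word of Grainyhead factors, was in 0 of 40 and 0.1% of all. The comparison is with all genes that had a promoter, not with those that had a well-read junction. A gene with several promoters counted if any of them held the word. No promoter was found for Cdh1, A2m or Esrp1, and the differences in share were not tested. A match is a description of letters, not of binding, and the words can overlap. The 200 of these bases nearest the start of Epcam are printed with matches in capitals, as an example of a gene with members that holds CAGGTG on both strands.
Epcam, chr17:87635779-87635978, plus strand: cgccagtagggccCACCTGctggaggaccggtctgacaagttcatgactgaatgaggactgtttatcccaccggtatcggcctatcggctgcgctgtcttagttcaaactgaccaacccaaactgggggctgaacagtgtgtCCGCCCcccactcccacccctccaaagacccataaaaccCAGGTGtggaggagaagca

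The threshold cut through some genes and left others out whole. The 9 one-sided junctions just inside it included junctions of Col7a1 and Ltf at 100 reads, and of A2m and Bcat1 at 101. At 97 to 99 reads 8 were just outside, among them junctions of Tmprss2 at 97, Slc7a11, Nkd2 and Adgrg1 at 98 and Dab1 at 99. All of these had 0 under R2. Nkd2, Adgrg1 and Dab1 held no member, while Tmprss2 and Slc7a11 did. A smaller number of exactly 1 kept a further 106 well-read junctions out, 101 of them with the 1 read under R2.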

How the data were processed

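The deposited junction table is named as mm9, has no header and covers both libraries together. It gives a count of reads, which equals the sum of R1 and R2 in every row, and a deposited score with no stated definition. The authors' aligner, annotation and filters for it are not stated in the labels or notes. The deposited gene tables hold estimated counts and TPM made by the authors on mm10 with GENCODE M4, per the notes beside them. A count of 0 on either side with 100 or more reads made a member. Clusters, lengths, shared splice sites and gene names were computed with Python 3.11.15, pandas 2.3.3, numpy 2.4.6 and scipy 1.17.1. Naming required 3 introns of equal length and spacing on the same chromosome and strand, over junctions of 10 reads or more; it was tested on simulated data, and no coordinate was converted. Each side is 1 library, so no test was made. R1 had 20608101 and R2 21401551 reads. Members and lists were chosen with earlier results of these data known. Named items are the 10 best-read junctions and 8 largest clusters per side, extremes of length, junctions near the threshold or sharing a site, and listed genes; others were chosen after their values were seen. Contig and transcript tables were not used. Values of 1 gene are not reported here.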

Additional observations from a re-analysis of the deposited data

How the results depend on the processing

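Of the members, 94.0% had 0 under R2, and this share was 92.6% at a minimum of 50 reads, 91.8% at 200, 94.4% with 1 read allowed on the silent side and 91.4% with clusters counted once. The number of one-sided junctions followed the read minimum, with 538 at 50 reads and 98 at 200, against 235, and so did the number of clusters, with 189 and 31 against 70. The median score rose from 0.006 to 0.009 at a minimum of 200 reads. Gaps of 20 or 500 kb, 2 or 5 introns for a name, and other read minimums for a sharing junction moved no count by over 1.5 times. A match on 2 introns added 1 name, Atp1a4. Leaving out a replicate was not run, because a junction read in 1 library needs both. No paired analysis was possible because each number is 1 library and no test was made. At 0 reads the depth allows up to 3.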

Other observations

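Of the 235 members, 21 took no name by structure, 9 with 0 under R2 and 12 with 0 under R1. Among the 9, a junction of 373 R1 reads lay at chr5:23721722-23725193, one of 310 at chr12:77893988-77896140 and one of 215 at chr6:29410902-29411018 with the marks A=0 and C=0. A junction of 120 R1 reads at chr9:105927881-105928782 lay inside the span of the named Col6a4 junctions. Smaller ones were at chr11:8821060-8826334 (113 reads), chr13:53731838-53731918 (103) and chr15:76393085-76396673 (100). Among the 12 with 0 under R1, 10 were serpin span junctions over 7 kb, 1 of 361 reads lay in that span at chr12:105427922-105428559 with a length of 638 bases, and 1 of 134 reads was at chr1:174154320-174157213.

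Tnni2, a troponin gene of fast skeletal muscle, held a one-sided junction of 530 R1 reads, while its 5 matched junctions summed to 649 and 11. None of the genes of the skeletal muscle list held a member, but at 0.398% its 6 well-read junctions would mostly hold none. Col7a1 differed from A2m in how thinly its reads were spread: 107 matched junctions shared 5649 R1 reads, and 18 reached 100 reads.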
